A study of Mus musculus with 6 samples.

Results

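The genes examined here are 40 calcium handling, ion channel and connexin genes of the heart, chosen by symbol and matched to the Ensembl identifiers of the count table. All 40 were found among the 28777 genes listed, and all 40 were among the 28157 genes tested, which had more than 5 reads over all libraries. Bulk RNA-Seq was available for outflow tracts (OFT) of E13.5 mouse embryos, the tract through which the heart empties into the great arteries. There were 3 libraries labelled mutant (*Notch1*+/-; *Nos3*-/-, 1 disrupted copy of the gene of the Notch1 receptor and none intact of the gene of endothelial nitric oxide synthase) and 3 labelled wildtype (*Notch1*+/+; *Nos3*+/+, littermates). Both alleles were germline knockouts present in every cell of the embryo, on a C57/BL6J background, and no agent was given to either group. Each library pooled 3 OFTs, 18 in all, cut bluntly at the base of the tract, so the samples hold myocardium, cushion mesenchyme, endothelium and other cells together. In such bulk samples, fewer cells of a type and less RNA per cell cannot be told apart.

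The beat of the embryonic heart starts with an action potential that opens calcium channels in the cell membrane. The calcium that enters opens the ryanodine receptor, which releases more calcium from the sarcoplasmic reticulum (SR), and the SR pump then takes it back so that the muscle relaxes. Potassium channels end the action potential, and connexins form the gap junctions that pass it from cell to cell. In the embryo, the OFT myocardium conducts slowly, as does the atrioventricular canal.

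Depth was between 34729103 and 44387490 counts per library, and a floor of 3 counts was 0.0675 to 0.0924 CPM, reads of a gene scaled for depth with the TMM method of edgeR. The targeted genes were examined first. *Nos3* had 31.8, 47.2 and 48.1 CPM in the wildtype libraries and 20.4 to 22.1 CPM in those labelled mutant (log2 fold change −0.98, standard error 0.15, Benjamini-Hochberg adjusted p = 0.128 by the quasi-likelihood test of edgeR, as for each adjusted p given without a tool). *Notch1* had 74.3, 88.2 and 83.6 CPM in wildtype and 155, 161 and 139 CPM in the libraries labelled mutant (0.89, standard error 0.10, adjusted p = 0.0313), so it was called higher in the libraries that should carry 1 disrupted copy. Directions are therefore given for "the libraries labelled mutant". The titles and descriptions of wildtype replicates 2 and 3 exchange their library numbers, so these libraries are called wildtype library A and wildtype library B, and values are listed in the order wildtype replicate 1, library A, library B, then mutant replicates 1, 2 and 3. *Kcnh2*, a member, lies 13.2 kb from *Nos3* on chromosome 5.

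Upstream sequences of 3 members are shown because these genes stand for the SR pump's brake, the release channel and an inward rectifier, and all 3 had lower means in the libraries labelled mutant. They are RefSeq promoter windows of build GRCm38.p6 cut to end 1 base before the annotated gene start, and read 5′ to 3′ on the strand of the gene. Capitals mark TATAAA or AGATAA on either strand, the second of which reads TTATCT when it lies on the opposite strand. The windows lie at chr10:53337436-53337666 on the plus strand (*Pln*), chr13:12106946-12107195 on the minus strand (*Ryr2*) and chr9:32344351-32344594 on the minus strand (*Kcnj5*).
Pln: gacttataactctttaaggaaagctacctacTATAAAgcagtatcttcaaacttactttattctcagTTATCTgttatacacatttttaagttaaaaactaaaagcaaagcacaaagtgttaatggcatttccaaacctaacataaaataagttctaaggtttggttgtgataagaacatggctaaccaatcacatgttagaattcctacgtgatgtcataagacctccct
Ryr2: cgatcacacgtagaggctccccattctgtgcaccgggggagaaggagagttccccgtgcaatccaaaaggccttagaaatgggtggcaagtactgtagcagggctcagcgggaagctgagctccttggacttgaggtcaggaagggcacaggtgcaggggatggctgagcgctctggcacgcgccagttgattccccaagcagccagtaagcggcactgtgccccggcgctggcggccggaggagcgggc
Kcnj5: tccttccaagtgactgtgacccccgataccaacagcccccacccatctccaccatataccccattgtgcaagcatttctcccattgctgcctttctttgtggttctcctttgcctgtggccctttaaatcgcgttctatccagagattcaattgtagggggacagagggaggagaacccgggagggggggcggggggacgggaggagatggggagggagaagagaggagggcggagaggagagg

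The *Pln* window had a GC content of 32.0%, against 63.2% for *Ryr2* and 57.8% for *Kcnj5*, and it alone of the 3 held TATAAA (200 to 195 bases before the annotated start) and AGATAA (164 to 159 bases before it). Of the 40 members, 29 had a RefSeq window, and 7 motifs were searched on both strands in the 250 upstream bases of these and of all 27025 windows. TATAAA was found in 2 of the 29 (*Cacna1d*, *Pln*) and in 12.9% of all windows. AGATAA was found in 3 (*Gja1*, *Pln*, *Slc8a1*) and in 10.2% of all, and CATTCC in 2 (*Abcc9*, *Tmem38a*) and in 12.6%. The E-box CANNTG was found in 17 of the 29 and in 66.0% of all windows, and TGGGAA in 6 and in 21.5%. The MEF2 site was found in 1 (*Casq2*) and in 3.0% of all windows, and the CArG box in 0 and in 1.4%. As shares of the 29, these were 6.9% for TATAAA and for CATTCC, 10.3% for AGATAA, 58.6% for CANNTG, 20.7% for TGGGAA and 3.45% for the MEF2 site. With 29 windows such shares are coarse, and whether they differ from those of all windows was not tested. CANNTG, which the capitals do not mark, was present in all 3 printed sequences.

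In the wildtype OFT the SR pump gene *Atp2a2* and the SR store genes *Casq2* and *Srl* were, with *Atp1b1*, the 4 highest members. Other SR genes such as *Trdn* and *Ryr2* stood lower. Levels between genes are compared as CPM per kb of exon, with all annotated exons of a gene merged. The order therefore depends on the annotated length. *Cacna1c* had a wildtype mean of 165 CPM over 21191 bases, and *Kcne1* 110 CPM over 3214 bases. *Atp2a2*, which encodes the SR calcium pump SERCA2, had the highest level with 180, 168 and 253 CPM per kb (201 ± 45.8, SD, n = 3), and its lowest library was above the highest of any other member. *Atp1b1* (138 ± 13.7, SD, n = 3), the beta subunit of the sodium pump, *Casq2* (134 ± 24.8, SD, n = 3), the calcium-binding protein of the SR lumen, and *Srl* (126 ± 16.2, SD, n = 3), the SR glycoprotein sarcalumenin, followed with ranges that overlapped from 1 to the next. *Jph2* (65.9 ± 11.6, SD, n = 3), which ties the SR to the cell membrane, came next and overlapped neither neighbour. *Pln* (47.4 ± 4.35, SD, n = 3), the phospholamban that holds SERCA2 back, followed *Jph2* and overlapped *Hrc*, the next in order. Of the remaining members, 15 lay between 1 and 10 CPM per kb, among them all 6 calcium channel subunits. The 6 members under 1 CPM per kb were *Kcnj3*, *Kcnip2*, *Kcnd3*, *Kcnd2*, *Hcn2* and *Scn4b*. The transient outward channels (*Kcnd2*, *Kcnd3*) and their subunit *Kcnip2* were thus near the bottom of the order, far below *Kcne1* (34.1 ± 1.66, SD, n = 3) and *Kcnh2* (17.5 ± 2.39, SD, n = 3). *Scn4b*, a beta subunit of the sodium channel, was lowest, with 2 to 18 reads per library.

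**Figure D1:**
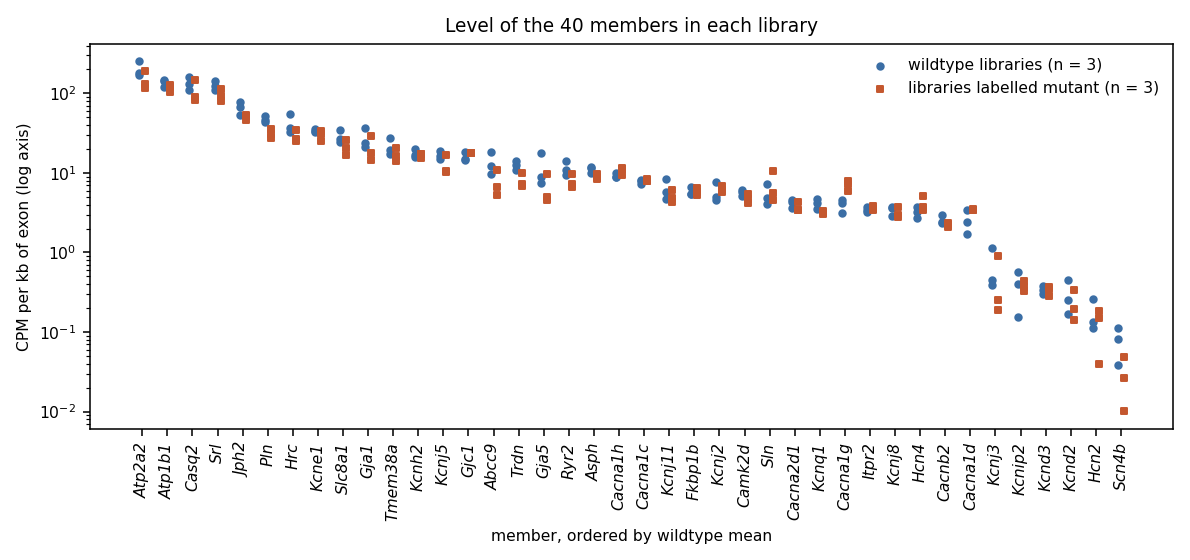
Level of each of the 40 members in CPM per kb of exon (log axis) in the 3 wildtype libraries (circles) and the 3 labelled mutant (squares), ordered by the wildtype mean. *Atp2a2* is highest at 201 CPM per kb and 6 members lie under 1 CPM per kb.

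None of the 40 members was called between the groups in the edgeR fit of all 6 libraries without a replicate block. There, 0 had an adjusted p at or under 0.05, adjusted by Benjamini-Hochberg over all genes tested, and the range was 0.128 to 0.998. The background was low as well, since 6 of the 28157 genes were called (0.0213%, made up of 0.00355% lower and 0.0178% higher). At an unadjusted p under 0.05 there were 12 members lower and 2 higher in the libraries labelled mutant, 30.0% and 5.0% of the list, against 7.83% and 8.23% of all genes tested. Of the 40, 30 had a negative log2 fold change (75.0%, against 48.8% of all genes), and the median was −0.30, a fold of 0.812, against 0.01 over all genes. The list was chosen with earlier results of these data known. These shares and medians are therefore a description, and whether the members differ from all genes was not tested. The 3 wildtype libraries all lay above the 3 labelled mutant for *Pln*, *Trdn*, *Asph*, *Kcnq1* and *Cacnb2*, 12.5% of the members against 8.94% of all genes, and all below them for *Cacna1g*, 2.5% against 10.7%. An exact permutation test of a single gene cannot give a p under 0.1 with 3 libraries against 3. DESeq2's Wald test called *Pln* and *Trdn* lower and *Cacna1g* higher, 2 and 1 of the 40, where it called 2.64% of all genes, 1.18% lower and 1.46% higher. Over all alternatives, 0 to 20 members were called lower and 0 to 4 higher. The 20 came with a replicate block by the sample titles and a correction for GC content and length. That fit called 1454 of the 28157 genes lower and 1024 higher, and the titles were not taken to pair the samples. Of the fits that left out 1 library, only that without wildtype replicate 1 called any member. There 4 members were called lower and 4 higher, against 5.3% and 4.15% of all genes. Because nothing says that the pools came from separate litters, the p-values measure the spread between pooled libraries.

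The number of members with an unadjusted p under 0.05 and lower in the libraries labelled mutant depended on single libraries. It was 3 when wildtype library B was left out, 4 when mutant replicate 2 was, 6 when mutant replicate 1 was and 20 when mutant replicate 3 was. The median of the members stayed between −0.39 and −0.15 over the 6 fits that left out 1 library. Wildtype library B held the highest value of 25 of the 40 members, and mutant replicate 2 the lowest of 26. The members' median deviation from the wildtype mean, on the scale of log2 of CPM plus 0.5, was −0.08, −0.11 and 0.18 in the wildtype libraries and −0.30, −0.41 and −0.01 in those labelled mutant, so mutant replicate 3 lay above 2 of the 3 wildtype libraries.

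**Figure D2:**
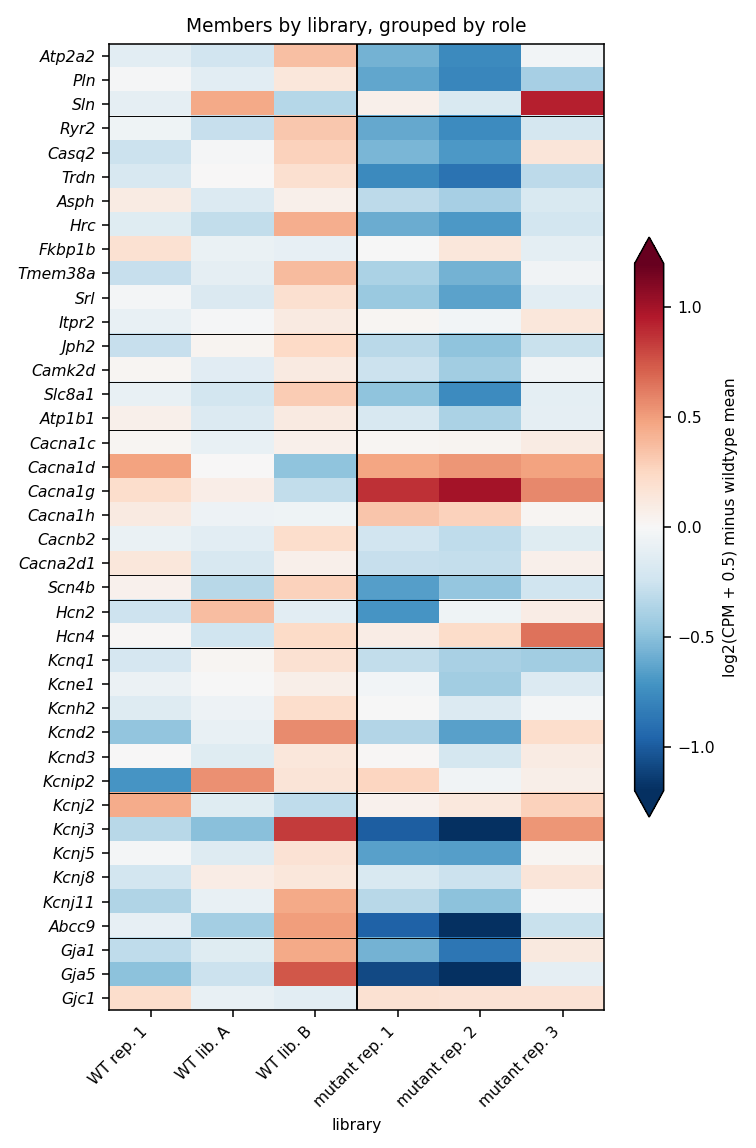
Deviation of each member in each library from its wildtype mean, in log2(CPM + 0.5), with members grouped by role and the wildtype libraries on the left. Blue is lower and red higher, with the color scale ending at 1.2 in either direction. Mutant replicates 1 and 2 are blue for most SR genes, and wildtype library B is red for most of them.

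Of the 14 members of the SR and its junction with the membrane, 12 were lower in the libraries labelled mutant, 7 of them with an unadjusted p under 0.05, and the median log2 fold change was −0.36. Among the 3 genes of the pump, *Pln* (ENSMUSG00000038583, chromosome 10, 53337667 to 53345987, mm10) had 129, 120 and 144 CPM in wildtype and 84.4, 75.5 and 99.0 CPM in the libraries labelled mutant. The groups did not overlap, and the log2 fold change of *Pln* was −0.60 (standard error 0.12, adjusted p = 0.153). *Pln* was called by DESeq2's Wald test (adjusted p = 0.002) and by edgeR without wildtype replicate 1 (adjusted p = 0.025). It was also called with the replicate block by titles, with and without the correction for GC content and length. The range over its alternatives was 0.000309 to 0.642. *Atp2a2*, the pump that phospholamban restrains, had 1097, 1024 and 1538 CPM in wildtype and 810, 707 and 1173 CPM in the libraries labelled mutant. Mutant replicate 3 lay above 2 wildtype libraries, and the log2 fold change of *Atp2a2* was −0.44 (standard error 0.20, adjusted p = 0.312, range over its alternatives 0.000282 to 0.724). *Sln*, the atrial counterpart of phospholamban, was the 1 gene of the pump with a positive value, 0.33 (standard error 0.30), with 5.39 to 9.68 CPM in wildtype and 6.08 to 13.8 CPM in the libraries labelled mutant, and it was −0.101 without mutant replicate 3.

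Exons of *Pln* overlap those of listed genes on the opposite strand over 64.7% of their length, mainly *Cep85l*. Whether the counting used the strand is not given in the sources used here, so how reads in the overlap were assigned or dropped is not known. The level of *Cep85l* was 16.3 ± 1.89 CPM in wildtype and 17.8 ± 0.897 CPM in the libraries labelled mutant (SD, n = 3 each), a log2 fold change of 0.13 (adjusted p = 0.622). Such overlap was present for 11 members and above 10% for 4, the others being *Kcnj3* (31.1%), *Atp1b1* (18.7%) and *Asph* (14.3%).

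The 9 genes of calcium release and storage included 8 with negative values, a median of −0.34 and 5 with an unadjusted p under 0.05. *Ryr2*, the release channel itself, had 312, 268 and 405 CPM in wildtype and 212, 192 and 279 CPM in the libraries labelled mutant. The groups overlapped only by mutant replicate 3 against wildtype library A, and the log2 fold change of *Ryr2* was −0.53 (standard error 0.17, adjusted p = 0.223, range over its alternatives 9.13e-05 to 0.651). *Trdn*, the triadin that holds calsequestrin to the release channel, had 103, 117 and 134 CPM in wildtype and 68.8, 63.2 and 94.0 CPM in the libraries labelled mutant. The groups did not overlap, and *Trdn* had the most negative value of the release and storage genes, −0.64 (standard error 0.15, adjusted p = 0.181). It was called by DESeq2's Wald test (adjusted p = 0.00995), by edgeR without wildtype replicate 1 (adjusted p = 0.0267) and with the replicate block by titles. That block called it with and without the correction for GC content and length, and the range over its alternatives was 0.000166 to 0.642. *Asph*, whose junctin form sits in the same complex, had 192, 159 and 186 CPM in wildtype and 144, 135 and 157 CPM in the libraries labelled mutant, without overlap (−0.30, standard error 0.11).

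*Hrc*, the histidine-rich calcium-binding protein of the SR lumen, had 94.1, 84.4 and 141 CPM in wildtype and 68.6, 64.1 and 89.4 CPM in the libraries labelled mutant (−0.52, standard error 0.19). *Srl* had 654, 592 and 762 CPM in wildtype and 489, 426 and 608 CPM in the libraries labelled mutant (−0.40, standard error 0.15). For both, mutant replicate 3 lay above wildtype library A and below the other wildtype libraries. *Casq2* had 302, 357 and 437 CPM in wildtype and 246, 224 and 400 CPM in the libraries labelled mutant (−0.33, standard error 0.21), so mutant replicate 3 stood above 2 wildtype libraries. *Tmem38a*, a potassium channel of the SR that balances the charge of the released calcium, had −0.34 (standard error 0.18). The 2 members of this group that lay near 0 were *Itpr2*, an IP3-gated release channel (0.04, standard error 0.10), and *Fkbp1b*, which binds and steadies the ryanodine receptor. *Fkbp1b* had 6.79, 5.59 and 5.48 CPM in wildtype and 5.90, 6.56 and 5.41 CPM in the libraries labelled mutant, means of 5.96 and 5.96 CPM.

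At the junction, *Jph2* had 229, 284 and 328 CPM in wildtype and 222, 199 and 231 CPM in the libraries labelled mutant (−0.37, standard error 0.13, adjusted p = 0.243). The groups met at wildtype replicate 1. Without that library *Jph2* was called (−0.49, adjusted p = 0.0229, range over its alternatives 0.00032 to 0.657), as were 5.3% of all genes in that direction. *Camk2d*, the calcium-dependent kinase that acts on phospholamban and the release channel, had −0.23 (standard error 0.12). Among membrane transporters, *Slc8a1*, the sodium-calcium exchanger that moves calcium out of the cell, had 506, 462 and 661 CPM in wildtype and 383, 319 and 495 CPM in the libraries labelled mutant (−0.44, standard error 0.18, adjusted p = 0.266, range over its alternatives 0.000713 to 0.688). *Atp1b1* had 442, 376 and 455 CPM in wildtype and 371, 325 and 393 CPM in the libraries labelled mutant (−0.22, standard error 0.12). Mutant replicate 3 lay above wildtype library A for both transporters.

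**Figure D3:**
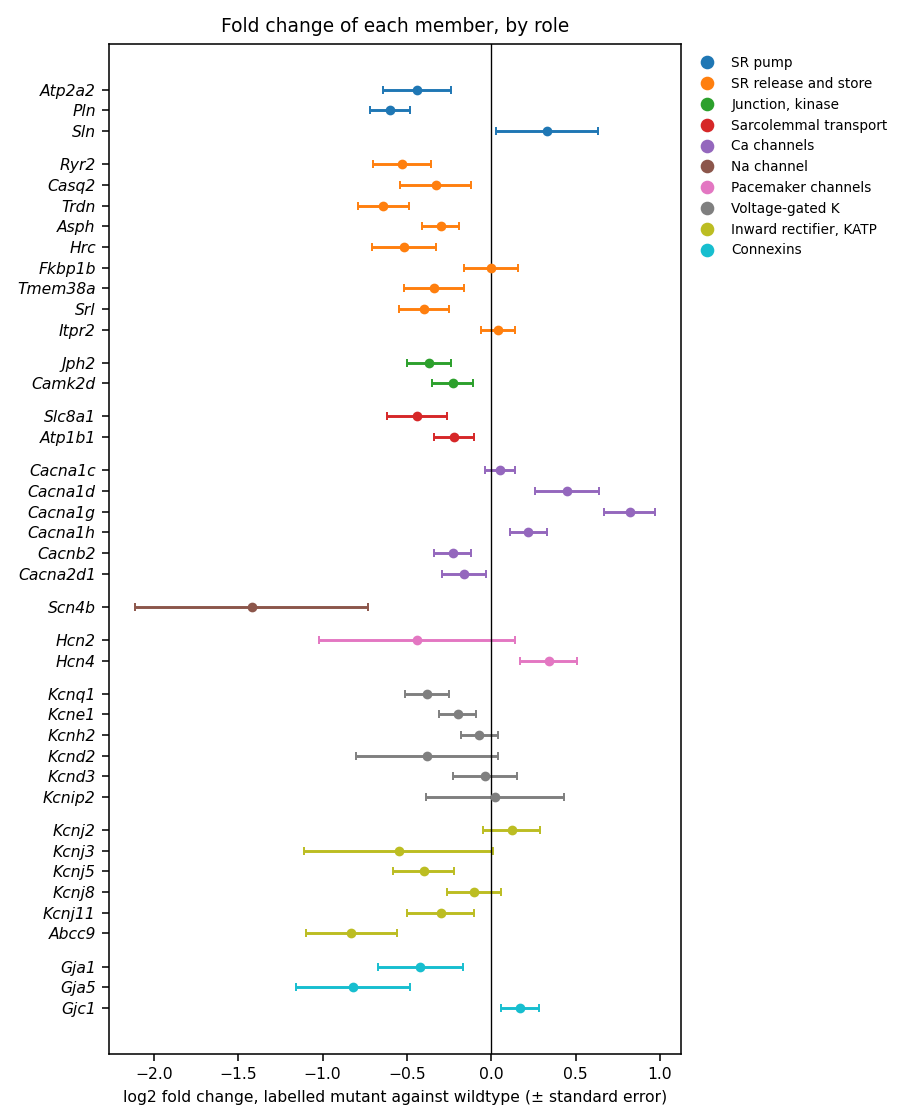
Log2 fold change of each member in the libraries labelled mutant against wildtype (points) with its standard error from edgeR (bars), grouped and colored by role. Most SR genes lie left of 0, with *Pln* at −0.60 and *Trdn* at −0.64, and *Cacna1g* lies farthest right at 0.82.

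Of the 6 calcium channel subunits of the membrane, 4 had positive values, with a median of 0.13, and 0 were called by edgeR (2 higher at an unadjusted p under 0.05, and 1 called by DESeq2). For *Cacna1c* and *Cacna1h* the sign turned with a correction for GC content and length (−0.088 and −0.032). The subunits with positive values were then *Cacna1g* (0.59, adjusted p = 0.185) and *Cacna1d* (0.38, adjusted p = 0.301). *Cacna1g* (ENSMUSG00000020866, chromosome 11, 94408391 to 94474198) encodes a T-type channel that opens at low voltage and is known from pacemaker and embryonic myocardium. It had 46.0, 42.0 and 32.2 CPM in wildtype and 73.0, 79.4 and 59.3 CPM in the libraries labelled mutant. The groups did not overlap, and the log2 fold change of *Cacna1g* was 0.82 (standard error 0.15, adjusted p = 0.128), the smallest p of the 40 members. It was called by DESeq2's Wald test (adjusted p = 0.000271) and by edgeR without wildtype replicate 1 (0.93, adjusted p = 0.0184), with a range of 0.000183 to 0.576 over its alternatives. *Cacna1h*, the other T-type channel, had 97.2, 86.5 and 86.8 CPM in wildtype and 113, 109 and 91.3 CPM in the libraries labelled mutant (0.22, standard error 0.11), with mutant replicate 3 below wildtype replicate 1.

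*Cacna1d*, an L-type channel of pacemaker cells, had 43.1, 30.9 and 21.8 CPM in wildtype and 43.0, 44.5 and 43.2 CPM in the libraries labelled mutant (0.45, standard error 0.19, adjusted p = 0.295). The spread lay almost wholly in the wildtype libraries (31.9 ± 10.7 CPM against 43.6 ± 0.817 CPM, SD, n = 3 each), and wildtype replicate 1 stood at the level of the libraries labelled mutant. Without wildtype replicate 1 *Cacna1d* was called (0.72, adjusted p = 0.0212, range over its alternatives 0.0212 to 0.657). *Cacna1c*, the main L-type channel of the working heart, had 156 to 173 CPM in wildtype and 168 to 177 CPM in the libraries labelled mutant (0.05, standard error 0.09). Its accessory subunits had −0.23 (standard error 0.11, *Cacnb2*, without overlap at 31.1 CPM against 30.7 CPM) and −0.16 (standard error 0.13, *Cacna2d1*). The pacemaker channel *Hcn4* had 19.8, 16.5 and 22.9 CPM in wildtype and 20.8, 22.8 and 31.0 CPM in the libraries labelled mutant (0.34, standard error 0.17), groups that overlapped. Its value was 0.16 with the correction for GC content and length. *Hcn2*, with 0.125 to 0.819 CPM, could not be compared closely at this depth (standard error 0.58), nor could the sodium channel subunit *Scn4b* (−1.42, standard error 0.69), for which mutant replicate 1 had 2 reads.

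**Figure D4:**
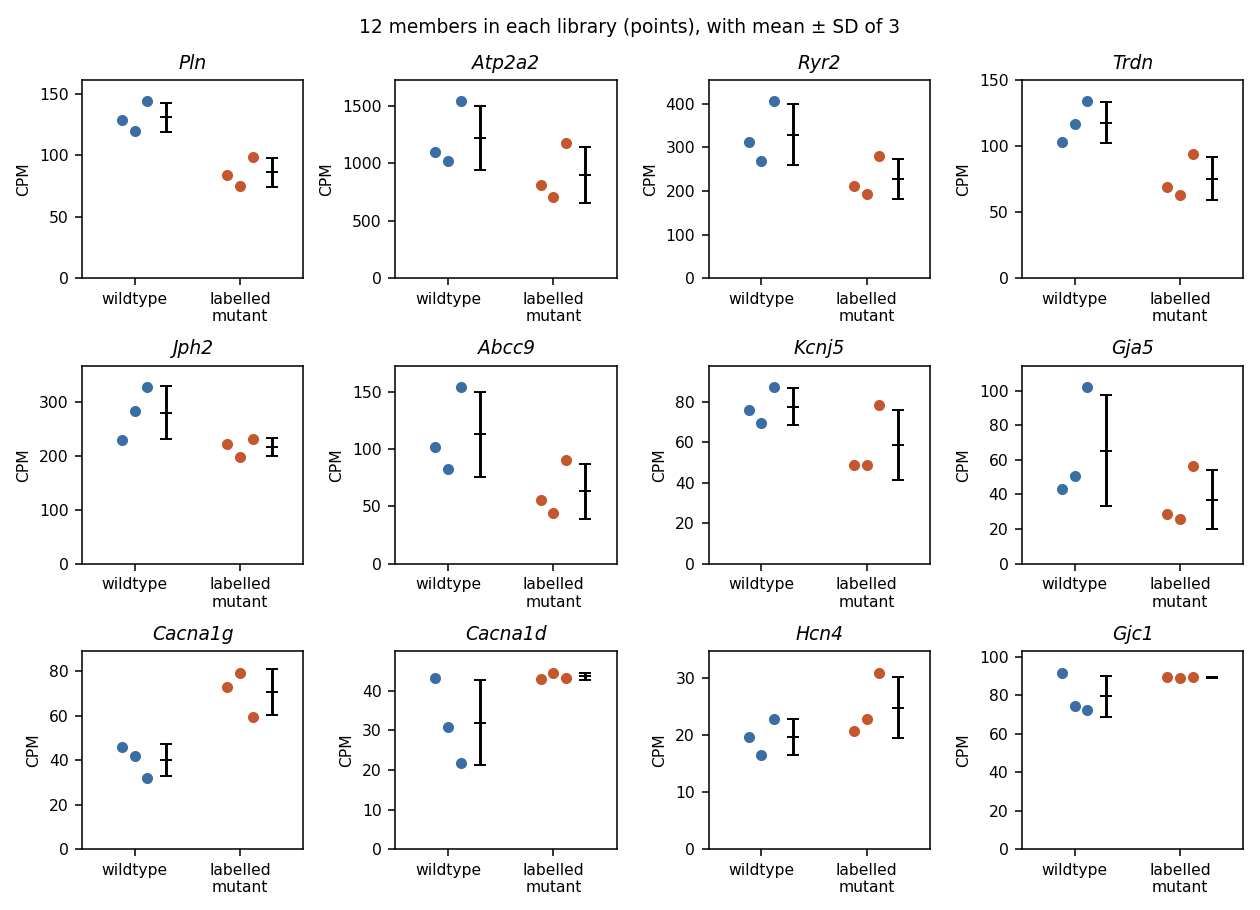
CPM of 12 members in each library (points, wildtype on the left of each panel and labelled mutant on the right, in the order of the text) with mean and SD of 3 libraries (bars). The groups are apart for *Pln*, *Trdn* and *Cacna1g*, and wildtype library B lies well above the other wildtype libraries for *Gja5*.

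Of the 6 voltage-gated potassium channel genes, 5 had negative values with a median of −0.13. *Kcnq1*, the pore of the slow delayed rectifier, had 14.5, 17.2 and 19.2 CPM in wildtype and 13.7, 12.8 and 12.5 CPM in the libraries labelled mutant. The groups did not overlap (−0.38, standard error 0.13, adjusted p = 0.227), and without wildtype replicate 1 *Kcnq1* was called (−0.48, adjusted p = 0.0315, range over its alternatives 0.00771 to 0.644). Its partner *Kcne1* had −0.20 (standard error 0.11). *Kcnh2*, the pore of the rapid delayed rectifier, had 75.9 to 98.0 CPM in wildtype and 75.4 to 84.2 CPM in the libraries labelled mutant (−0.07, standard error 0.11). The transient outward genes had −0.38 (*Kcnd2*, standard error 0.42), −0.04 (*Kcnd3*, standard error 0.19) and 0.02 (*Kcnip2*, standard error 0.41), with errors larger than the values.

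Of the 6 inward rectifier and ATP-sensitive potassium channel genes, 5 had negative values with a median of −0.35. *Abcc9*, the SUR2 regulator of the ATP-sensitive channel, had 102, 82.2 and 154 CPM in wildtype and 55.4, 44.1 and 90.2 CPM in the libraries labelled mutant. Mutant replicate 3 lay above wildtype library A, and the log2 fold change of *Abcc9* was −0.83 (standard error 0.27, adjusted p = 0.218, range over its alternatives 3.76e-06 to 0.642), with −1.18 to −0.54 when single libraries were left out. The pores that combine with such regulators had −0.30 (*Kcnj11*, standard error 0.20) and −0.10 (*Kcnj8*, standard error 0.16). *Kcnj5*, a subunit of the acetylcholine-gated channel, had 76.2, 69.5 and 87.3 CPM in wildtype and 49.0, 48.6 and 78.6 CPM in the libraries labelled mutant (−0.40, standard error 0.18, adjusted p = 0.299, range over its alternatives 0.0031 to 0.71). Mutant replicate 3 stood at the wildtype level and the other 2 libraries labelled mutant stood well below it. *Kcnj3*, which forms that channel with *Kcnj5*, had 2.05 to 5.98 CPM in wildtype and 0.987 to 4.72 CPM in the libraries labelled mutant (−0.55, standard error 0.56), and 0.086 without wildtype library B. *Kcnj2*, the inward rectifier that sets the resting potential of ventricular muscle, had 41.8, 27.5 and 24.6 CPM in wildtype and 31.7, 33.4 and 36.9 CPM in the libraries labelled mutant (0.12, standard error 0.17), so wildtype replicate 1 was the highest of the 6. Without that library it was called (0.38, adjusted p = 0.0491, range over its alternatives 0.0491 to 0.964).

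The signs of the 3 connexins differed, but the groups overlapped for each. With all 6 libraries and no replicate block, 0 of them were called by edgeR. *Gja5* (connexin 40), of the fast-conducting atria and ventricular conduction system, had 43.1, 50.9 and 102 CPM in wildtype and 28.5, 26.0 and 56.5 CPM in the libraries labelled mutant (−0.82, standard error 0.34, adjusted p = 0.285, range over its alternatives 1.95e-05 to 0.687). Wildtype library B and mutant replicate 3 each stood well above the other libraries of their group, and the value lay between −1.26 without mutant replicate 3 and −0.34 without wildtype library B. *Gja1* (connexin 43), of working myocardium and many other cells, had 220, 246 and 372 CPM in wildtype and 183, 149 and 295 CPM in the libraries labelled mutant (−0.42, standard error 0.25). *Gjc1* (connexin 45), the low-conductance connexin of the early heart and the nodes, had 91.7, 74.4 and 72.2 CPM in wildtype and 89.6, 89.0 and 89.3 CPM in the libraries labelled mutant (0.17, standard error 0.11). As for *Cacna1d* and *Kcnj2*, wildtype replicate 1 stood apart from the other wildtype libraries, and without it *Gjc1* was called (0.28, adjusted p = 0.0453, range over its alternatives 0.0453 to 0.783). Without wildtype replicate 1, 4 members were called lower and 4 higher, where 9.45% of the 27450 genes then tested were called, 5.3% lower and 4.15% higher.

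The markers of heart muscle moved with these genes. Of 17 myocardial markers, all 17 had negative values, from −0.95 to −0.08 with a median of −0.52. At an unadjusted p under 0.05 there were 14 of them (82.4%), against 7.83% of all genes in that direction. DESeq2 called 1.18% of all genes lower and 8 of these markers, although edgeR called 0 of the markers. Their summed level was 37349, 42282 and 55422 CPM in wildtype and 31039, 26005 and 36879 CPM in the libraries labelled mutant, so wildtype library B was again highest and mutant replicate 2 lowest. Of 9 mesenchymal markers, all 9 had positive values with a median of 0.60, and their summed level was 9896, 6917 and 5017 CPM in wildtype and 11079, 12148 and 9124 CPM in the libraries labelled mutant. The order of the libraries by mesenchymal markers was close to the reverse of that by myocardial markers. The 7 blood markers had a median of −0.56, with summed levels of 3227.8 to 6924.8 CPM in wildtype and 3595.6 to 3669.9 CPM in the libraries labelled mutant. Medians of the endothelial (−0.06), vascular smooth muscle (0.15), epicardial (−0.20), neuronal (0.14), neural crest and glial (0.50) and macrophage (−0.06) lists came from 4 to 8 markers each. The smooth muscle markers differed in sign, with 2 lower and 5 higher, and the abundant *Acta2* was lower (−0.25). Their summed level was 1594, 1845 and 2080 CPM in wildtype and 1626, 1442 and 1649 CPM in the libraries labelled mutant. Every marker tested had more than 3 counts in at least 1 library, and the part of these cell types in the members' values was not tested.

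**Figure D5:**
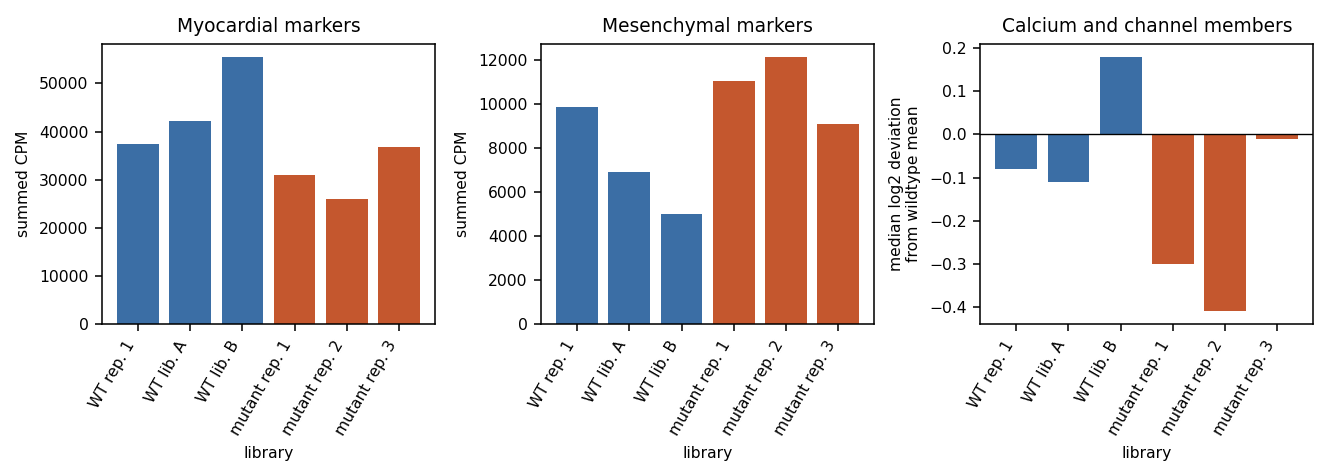
Summed CPM of the 17 myocardial markers (left) and the 9 mesenchymal markers (middle), and the median log2 deviation of the 40 members from the wildtype mean (right), by library. Wildtype library B is highest for the myocardial markers and the members and lowest for the mesenchymal markers, and mutant replicate 2 is the opposite.

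The members were also set against the mean log2 CPM of the myocardial markers in the same library. This ratio is given as a description, since the marker mean itself was 0.52 lower on the log2 scale in the libraries labelled mutant, and the median of all genes tested was then 0.53 and that of the members 0.27. The ratio of *Ryr2* was −1.79, −2.22 and −2.07 in wildtype and −2.11, −1.93 and −2.05 in the libraries labelled mutant, with equal means of −2.03. *Atp2a2* (0.07), *Pln* (−0.08) and *Trdn* (−0.13) also differed little in this ratio. *Gja5* (−0.27) and *Abcc9* (−0.32) had the most negative differences of the 40 members, with overlapping groups. The ratio was higher in every library labelled mutant than in every wildtype library for 8 members (*Sln*, *Tmem38a*, *Itpr2*, *Cacna1g*, *Hcn4*, *Kcnh2*, *Kcnj8* and *Kcnj11*), 20% of the list and thus no larger a share than the 23.7% of all genes, and lower for 0, against 0.0817%. *Cacna1g* had the largest difference (1.34), from −4.54, −4.88 and −5.71 in wildtype to −3.64, −3.20 and −4.28 in the libraries labelled mutant. *Cacna1d* (1.02) followed with groups that overlapped, then *Hcn4* (0.84) and *Sln* (0.80) without overlap.

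Of 93 further calcium handling, channel, pump and connexin genes, 91 were tested, of which 46 had negative and 45 positive values with a median of −0.00. Among them, 0 were called by edgeR and 6 by DESeq2, which called 2.64% of all genes. At an unadjusted p under 0.05, 11 of the 91 were lower and 9 higher in the libraries labelled mutant, 12.1% and 9.89%, against 7.83% and 8.23% of all genes. The 36 tested genes of calcium handling made up 6 of the 11 and 0 of the 9, with 20 negative and 16 positive values and a median of −0.04. The 46 channels and pumps had 5 lower and 7 higher at that p, and the 9 connexins 0 lower and 2 higher. Whether these groups differ from the members was not tested. The smallest p-values were those of *Kcna5*, the ultrarapid delayed rectifier of atrial muscle (8.90 ± 0.361 CPM in wildtype and 13.8 ± 0.487 CPM in the libraries labelled mutant, SD, n = 3, log2 fold change 0.63), and *Fxyd1*, the phospholemman that restrains the sodium pump (191 ± 39.2 CPM and 123 ± 12.6 CPM, −0.63). *Cav3*, the caveolin of muscle membranes (−0.51), *Trpm4*, a calcium-activated cation channel (0.46), and *Ppp1r1a*, an inhibitor of protein phosphatase 1 (−0.69), followed. The groups did not overlap for *Kcna5*, *Fxyd1*, *Cav3* and *Trpm4*. Their adjusted p were between 0.128 and 0.194, so edgeR called none of them.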

How the data were processed

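Bulk RNA-Seq of the E13.5 OFT was deposited as counts per gene. The authors prepared stranded total RNA libraries without ribosomal RNA, aligned the reads to mm10 with TopHat 2.1.0 and counted reads on exons with GenomicAlignments. The annotation release, the use of strand and the handling of overlapping genes are not given in the sources used here. Groups were taken from the sample labels. Genes with more than 5 reads over the 6 libraries were kept, scaled by TMM and tested with edgeR 4.0.16 (quasi-likelihood test, Benjamini-Hochberg over the 28157 genes, calls at an adjusted p of at most 0.05) in R 4.3.3, code that was tested on simulated data. The biological coefficient of variation was 0.17. Alternatives were DESeq2 1.42.0, other scalings and filters, replicate blocks, a correction for GC content and length, and leaving out each library. Standard errors came from the quasi-likelihood fit and each SD from the 3 libraries of a group, so both hold the spread between libraries. Floors cover counting error only. Exon lengths and positions came from GENCODE M21, which holds 28723 of the identifiers. The members and all gene lists were chosen with earlier results of these data known.

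All 40 members are named. Values in each library are given for the 15 with the smallest p, the 5 with the highest level per kb, members that the study's tables list and the member nearest a log2 fold change of 0. The study's tables list human homologs of *Atp2a2*, *Ryr2*, *Kcnj5* and *Abcc9* among its differentially expressed genes. DESeq2's Wald test as run here did not call them (adjusted p = 0.17, 0.0596, 0.192 and 0.243), and the reason for the difference was not tested. Other values were chosen after they were seen. Of the other pathway genes, the 5 with the smallest p are named.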

Additional observations from a re-analysis of the deposited data

How the results depend on the processing

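The count of genes called was 6, and it was 742 with DESeq2's Wald test, 2 at an adjusted p of at most 0.01, and 1 to 2593 when each library was left out in turn, the highest without wildtype replicate 1. Members called lower numbered 0 in the fit as reported, 2 with DESeq2 and 0 to 4 without 1 library, and members called higher 0, 1 and 0 to 4. Deviations of libraries with the same number in the titles correlated at 0.096, 0.159 and 0.42 over 16655 genes, and with the numbers of the descriptions at 0.096, −0.121 and −0.441. Wildtype libraries A and B correlated best with their partner by title, and wildtype replicate 1 with mutant replicate 2 (0.277). As 1 title pair was under 0.1, the numbers were not taken to pair the samples. With a replicate block by titles, 1577 of the 28157 genes were called, and 11 of the 40 members lower and 2 higher. With the block by descriptions, 83 genes were called, and 0 members lower and 1 higher. The GC content and length correction with the replicate block by titles gave 2478 of the 28157 genes, 1454 lower and 1024 higher. It gave 20 of the 40 members lower and 2 higher. The members' median log2 fold change was −0.15 to −0.39 in all alternatives. With scaling by library size only, the median of all genes was 0.114 and that of the members −0.19.

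Of 639 values of single members under the alternatives, 35 changed sign, in 13 members. With the correction for GC content and length, alone, with the block by descriptions and with the block by titles, *Fkbp1b* had 0.094, 0.109 and 0.11, *Itpr2* −0.056, −0.052 and −0.052, *Cacna1c* −0.088 each time, *Cacna1h* −0.032, −0.031 and −0.031, and *Kcnip2* −0.039 with the correction alone. With library size only, *Fkbp1b* had 0.10, *Kcnh2* 0.039, *Kcnd3* 0.066 and *Kcnj8* 0.005. *Fkbp1b* had 0.005 with filterByExpr and 0.001 and 0.002 with the block by descriptions and by titles. With each library left out in turn, *Fkbp1b* ranged from −0.076 to 0.106, *Kcnip2* ranged from −0.36 to 0.47, *Kcnd3* ranged from −0.115 to 0.059, *Sln* ranged from −0.101 to 0.61, *Itpr2* ranged from −0.01 to 0.096, *Hcn2* ranged from −0.83 to 0.002, *Kcnh2* ranged from −0.143 to 0.047, *Kcnd2* ranged from −0.79 to 0.077, *Kcnj2* ranged from −0.029 to 0.38 and *Kcnj3* ranged from −1.57 to 0.086. The cause was not tested. Depth limits *Hcn2*, *Scn4b*, *Kcnd2* and *Kcnip2*, which had under 100 reads in every library.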
